A study of Mus musculus with 6 samples.

Results

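Glycolysis and the response to low oxygen were examined through 36 genes in forelimb bud ectoderm, the cell sheet that covers the limb bud, of mouse embryos that have or lack Sp8, a zinc finger transcription factor of this tissue. The genes were taken by symbol from a fixed list, 21 of glycolysis and pyruvate handling and 15 of oxygen sensing and hypoxia response, out of 49452 genes in the table. All 36 were found, Gapdh in a row whose symbol also names a pseudogene. The wild-type group was 3 embryos from crosses of C57BL/6 mice, and the Sp8 null group was 3 embryos from crosses of Sp8+/- mice, whose null allele the labels name Sp8-Cre-ERT2, after a recombinase that tamoxifen activates. C57BL6J is given as the background of all 6. Each was collected at E10.5, the ectoderm was freed with trypsin, and the ectoderm of both forelimbs of 1 embryo made 1 library of polyadenylated RNA, with no drug or other treatment named. The labels thus name separate crosses for the groups, and a difference between crosses and a difference in genotype cannot be told apart. Sp8 itself was at 0.460 to 1.14 FPKM (sequenced fragments corrected for transcript length and library size) in Sp8 null and at 8.35 to 13.5 FPKM in wild type, so each library followed its label. Sp8 null embryo 2 stood apart in some limb mesenchyme genes. Prrx1 was at 53.3 FPKM there and at 3.92 to 16.5 FPKM in the other 5 libraries, and Twist1 at 7.80 against 0.628 to 3.07 FPKM. Not all such genes were high there. Meis1 was lowest in that embryo, at 29.2 against 37.6 to 45.5 FPKM, and Col1a2 (15.3 FPKM) lay below wild-type embryo 3 (16.7 FPKM). The sample names open with 4 for embryo 1 of each group and with 5 for the other 4 embryos, and what this number stands for is not given in the sources used here.

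Glycolysis splits glucose into pyruvate in the cytosol: hexokinase traps glucose, phosphofructokinase commits it, and the enzymes from aldolase to pyruvate kinase yield ATP, after which lactate dehydrogenase turns pyruvate into lactate. Many of these genes are targets of the hypoxia-inducible factors (HIFs), whose alpha subunits are marked for destruction by prolyl hydroxylases when oxygen is present. In early embryos high glycolytic activity is also known in well-oxygenated growing tissue, and in the tail bud it is known to respond to FGF signalling.

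The levels differed widely between members, and FPKM, being per length, lets them be compared. In wild type Gapdh was highest, at 988 ± 22.2 FPKM (SD, n = 3). Pgam1 (678 ± 104 FPKM) and Ldha (658 ± 119.7 FPKM) followed and did not differ beyond their spread. Next were Eno1 (233 ± 27.7 FPKM), Pkm (215 ± 27.5 FPKM) and Aldoa (199 ± 35.6 FPKM), whose ranges over embryos overlapped. Some isoenzymes were far apart. Hk2 stood at 107 ± 17.4 FPKM against 1.94 ± 0.0270 FPKM for Hk1, and Aldoa stood far above Aldoc (2.28 ± 0.265 FPKM). Among the oxygen-sensing genes Hif1a was at 38.5 ± 3.18 FPKM, while Epas1, which encodes the other widely known HIF alpha subunit, was at 0.227 ± 0.00632 FPKM. A filter of at least 1 FPKM in at least 3 libraries kept 32 of the 36 genes for testing, 20 of glycolysis and 12 of hypoxia response; Eno2, Epas1, Egln3 and Car9 did not pass it and are given by their values. The plot of FPKM by gene shows every library.

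**Figure D1:**
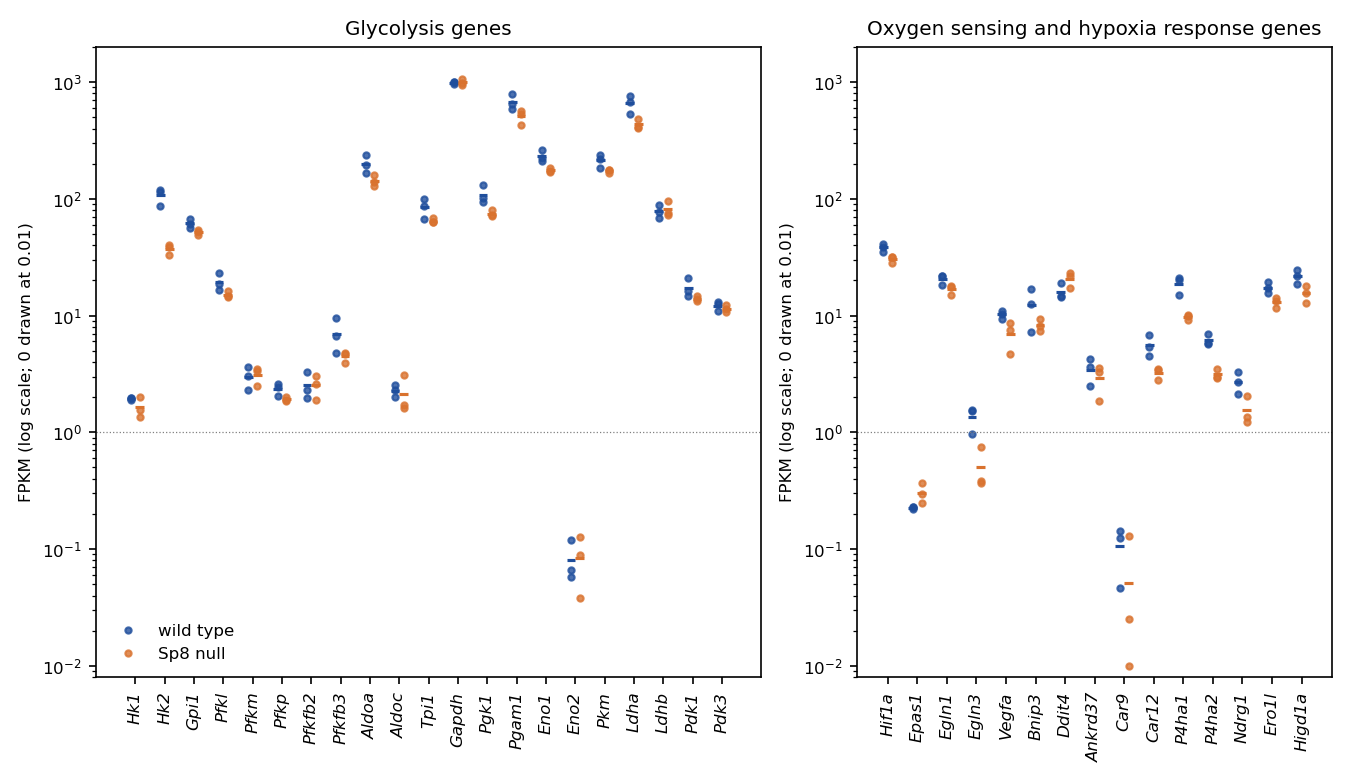
FPKM of the 36 genes on a log axis, 1 point per library and a line at the mean of the 3 libraries, wild type in blue and Sp8 null in orange; the dotted line is 1 FPKM, and a listed 0 is drawn at 0.01. Gapdh, Pgam1 and Ldha are the highest, and Hk2 shows a wider gap between genotypes than the genes around it.

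Hk2, P4ha1, P4ha2, Car12, Pgk1 and Eno1 were lower in Sp8 null ectoderm, and no member was called higher. These are the main hexokinase, 2 collagen prolyl hydroxylase subunits, a carbonic anhydrase and 2 glycolytic enzymes. They are 6 of 32 tested members, or 18.8%, called at an adjusted p under 0.05 (limma on log2(FPKM + 1), Benjamini-Hochberg adjusted over all genes), against 5.15% of all 12133 tested genes called lower and 1.68% called higher. Means of log2(FPKM + 1) were lower in Sp8 null for 27 of the 32, against 7432 of all 12133 tested genes. The median log2 fold change was -0.35, against -0.06 over all tested genes. In 20 of the 32 every Sp8 null library lay below every wild-type library, against 21.1% of all tested genes; in none did every Sp8 null library lie above, against 8.63%. An unadjusted p under 0.05 (limma) was found for 21 of the 32, against 2914 of the 12133. The count depended on the scaling between libraries. With median-of-ratios scaling 3 of 32 members were called lower (Hk2, P4ha1 and P4ha2), against 4.49% of all genes, and 13 of 32 had no overlap with Sp8 null below, against 15.9%. Without Sp8 null embryo 2, Hk2, P4ha1 and P4ha2 were called, at log2 fold changes of -1.41, -0.82 and -0.76 (limma adjusted p = 0.00241, 0.0323 and 0.0248), and Car12, Pgk1 and Eno1 were not (adjusted p = 0.125, 0.12 and 0.12). Of all tested genes 3.76% were called once that embryo was left out. With a covariate for the opening number (4 or 5) 4 members were called, without Pgk1 and Eno1 (limma adjusted p = 0.0823 for each). That fit called 4.49% of all tested genes in either direction, against 6.83% as reported. Over all genes, 625 were called lower and 204 higher as reported, 544 and 327 with median-of-ratios scaling, and 511 and 266 with upper-quartile scaling. When testing was limited to a mean of 5 FPKM or more, 5 of 23 members were called lower, against 6.57%. In bulk tissue, fewer cells that express a gene and less RNA per cell cannot be told apart.

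**Figure D2:**
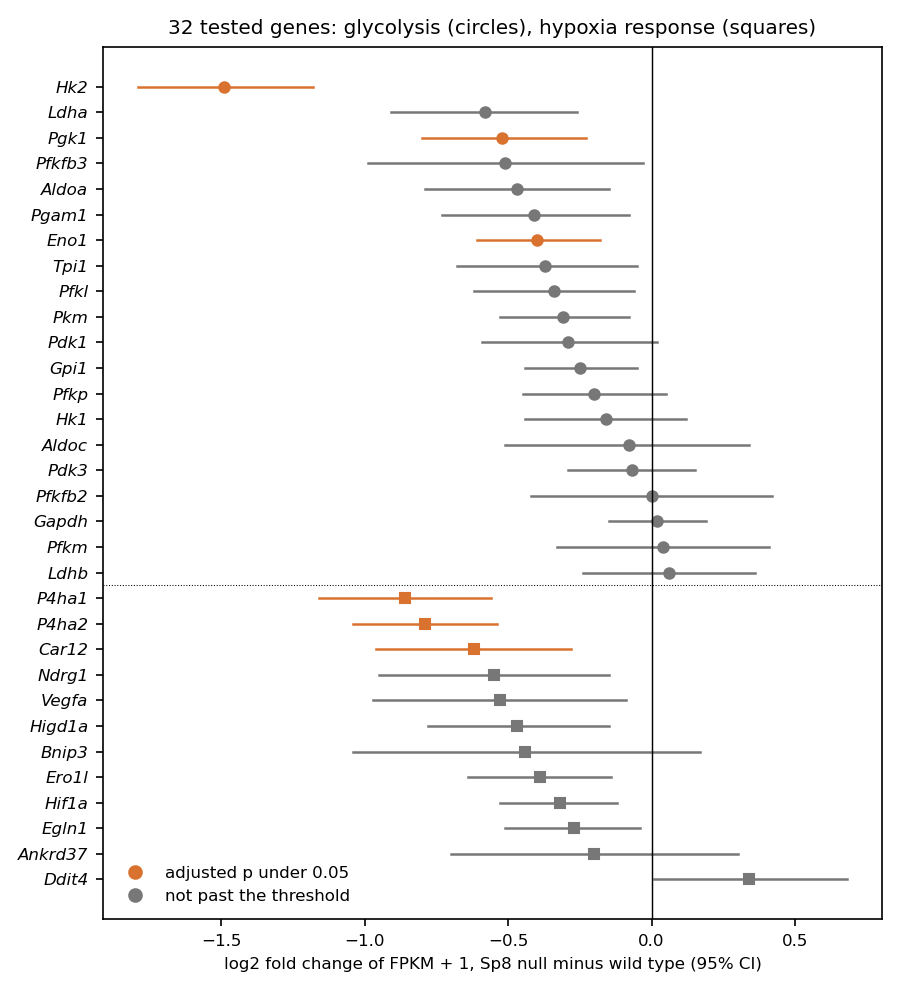
Log2 fold change of FPKM + 1, Sp8 null minus wild type, with its 95% confidence interval from limma for the 32 tested genes (n = 3 per genotype), glycolysis above the dotted line and hypoxia response below; orange marks an adjusted p under 0.05. Hk2 has the largest difference (-1.49), Gapdh, Ldhb, Pfkm and Pfkfb2 lie at 0 or slightly above, and Ddit4 is at 0.34.

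Hk2 (ENSMUSG00000000628; GRCm38, chromosome 6, 82725025 to 82774454, minus strand, protein-coding) encodes a hexokinase that binds mitochondria and is typical of growing and insulin-sensitive tissue. It was at 115, 119 and 87.2 FPKM in wild-type embryos 1, 2 and 3 and at 38.7, 33.2 and 40.2 FPKM in Sp8 null embryos 1, 2 and 3. The highest null library was below the lowest wild-type library by more than the whole range of the null group. Its mean fell by 65.1% (log2 fold change -1.49, SE 0.13, 95% CI -1.79 to -1.18, limma adjusted p = 0.000982), and it was called under all 16 alternatives, with log2 fold changes from -1.63 to -1.40. Hk1, the widely expressed hexokinase, was at 1.36 to 2.004 FPKM in Sp8 null and 1.91 to 1.96 FPKM in wild type, with overlapping groups (log2 fold change -0.16, 95% CI -0.44 to 0.12, limma adjusted p = 0.472). The exons of Hk1 overlap those of an antisense gene, Hk1os, and the use of strand in counting is not given in the sources used here.

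Between hexokinase and aldolase the differences were smaller. Gpi1, which converts glucose 6-phosphate to fructose 6-phosphate, was at 61.4, 67.9 and 56.1 FPKM in wild type and 54.1, 49.3 and 52.1 FPKM in Sp8 null. These groups did not overlap, but the difference did not pass the threshold (log2 fold change -0.25, limma adjusted p = 0.13). Of the phosphofructokinase subunits, Pfkl, the liver-type subunit and the most abundant here, was at 18.7, 23.0 and 16.7 FPKM against 16.2, 14.3 and 14.7 FPKM (log2 fold change -0.34, limma adjusted p = 0.139). Pfkp (platelet type) had a log2 fold change of -0.20 and Pfkm (muscle type) of 0.04, both at under 4 FPKM and with exons that overlap a more abundant gene on the other strand (Pitrm1 and Senp1). Pfkfb3, which makes the activator fructose 2,6-bisphosphate, was at 6.73, 9.53 and 4.76 FPKM in wild type and 3.91, 4.83 and 4.69 FPKM in Sp8 null. Wild-type embryo 3 lay inside the null range (log2 fold change -0.51, limma adjusted p = 0.188). Pfkfb2 had nearly equal means, 2.53 and 2.52 FPKM.

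From aldolase to pyruvate kinase the main enzyme of each step had a lower mean in Sp8 null, Gapdh excepted. Aldoa, which cleaves fructose 1,6-bisphosphate, was at 194, 237 and 166 FPKM in wild type and 160.3, 139 and 128 FPKM in Sp8 null (log2 fold change -0.47, limma adjusted p = 0.09). Tpi1, which interconverts the triose phosphates, was at 87.7, 99.7 and 67.0 FPKM against 68.2, 63.2 and 62.9 FPKM, with wild-type embryo 3 below the highest null library (log2 fold change -0.37, limma adjusted p = 0.159). Pgk1 (ENSMUSG00000062070; chromosome X, 106187100 to 106203699), the first enzyme of the pathway to make ATP, was at 101, 130.2 and 94.0 FPKM in wild type and 80.0, 73.0 and 71.1 FPKM in Sp8 null. No null library reached the wild-type range, and the mean fell by 31.0% (log2 fold change -0.52, SE 0.12, limma adjusted p = 0.0498). Eno1 (ENSMUSG00000063524; chromosome 4, 150236721 to 150248879), the main enolase, was at 223, 265 and 212 FPKM against 185, 173 and 171 FPKM. Its mean fell by 24.4%, again with no overlap (log2 fold change -0.40, SE 0.09, limma adjusted p = 0.0472). Both calls sat at the threshold: Pgk1 passed in 2 of 16 alternatives and Eno1 in 4 of 16, with adjusted p-values up to 0.151 and 0.136. Pgam1 and Pkm had log2 fold changes of -0.41 and -0.31 (limma adjusted p = 0.129 and 0.113), each with every null library below every wild-type library. Eno2, the neuronal enolase, was at most 0.126 FPKM in any library.

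Gapdh, the enzyme between Tpi1 and Pgk1, stood apart in its values. It was at 997.5, 1003.5 and 962 FPKM in wild type and 1065, 951 and 988 FPKM in Sp8 null, with overlapping groups (log2 fold change 0.02, 95% CI -0.15 to 0.19, limma adjusted p = 0.907). Taken as a ratio to Gapdh within each library, which no scaling between libraries changes, Ldha was at 0.678, 0.764 and 0.551 in wild type and at 0.453, 0.425 and 0.422 in Sp8 null. Hk2, Gpi1, Aldoa, Tpi1, Pgk1, Pgam1, Eno1, Pkm and P4ha1 likewise had every null ratio below every wild-type ratio. All of these but Tpi1 already had no overlap in FPKM. Ratios were taken for no other genes, so no share over all tested genes can be set beside them. The choice of Gapdh was made after its values were seen, and the ratio shows unequal change, not which gene moved. Gapdh shares exact runs of 50 bases with 213 annotated pseudogenes, against 16 for Ldha, 8 for Eno1, 7 for Pkm, 5 each for Aldoa and Pgk1 and 0 for Hk2, so its reads can be split between copies by the authors' counting. The pseudogenes of Gapdh summed to 19.8 to 21.6 FPKM in Sp8 null and 19.1 to 20.8 FPKM in wild type.

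At the exit from glycolysis the lactate dehydrogenase subunits differed from each other. Ldha (ENSMUSG00000063229; chromosome 7, 46841475 to 46855627), whose subunit favours lactate formation, was at 676, 767 and 529.8 FPKM in wild type and 482, 404 and 417 FPKM in Sp8 null. The groups were apart, and the difference just missed the threshold (33.95% lower in the mean, log2 fold change -0.58, SE 0.14, limma adjusted p = 0.0515). Ldha passed in 3 of 16 alternatives, with adjusted p-values from 0.0242 without wild-type embryo 3 to 0.168. Ldhb, whose subunit favours the reverse reaction, was at 89.4, 76.9 and 68.9 FPKM against 76.3, 95.6 and 73.4 FPKM, fully overlapping (log2 fold change 0.06, 95% CI -0.24 to 0.36). Of the kinases that switch off pyruvate dehydrogenase, Pdk1 was at 16.2, 21.2 and 14.8 FPKM in wild type and 14.8, 13.3 and 13.8 FPKM in Sp8 null (log2 fold change -0.29, limma adjusted p = 0.229). Pdk3 was at 10.9 to 12.9 FPKM and 10.7 to 12.3 FPKM in wild type and Sp8 null (log2 fold change -0.07, limma adjusted p = 0.688).

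Hif1a, the HIF alpha subunit found in most cells, was at 38.9, 41.4 and 35.1 FPKM in wild type and 31.9, 28.1 and 31.6 FPKM in Sp8 null. The groups did not overlap, and the difference did not pass (log2 fold change -0.32, SE 0.09, limma adjusted p = 0.0691). Transcript levels say little of HIF activity, which is set mainly through protein stability. Egln1, the chief prolyl hydroxylase that marks HIF alpha for destruction, was at 21.7, 21.9 and 18.3 FPKM against 17.8, 15.1 and 17.7 FPKM (log2 fold change -0.27, limma adjusted p = 0.154). Egln3, a prolyl hydroxylase that is itself a HIF target, was at 1.53, 1.55 and 0.9748 FPKM in wild type and 0.756, 0.367 and 0.382 FPKM in Sp8 null. Its mean was 62.9% lower, close to the figure for Hk2, but it was under the filter, and with no filter it did not pass (log2 fold change -0.65, limma adjusted p = 0.16). Epas1 was at 0.220 to 0.231 FPKM in wild type and 0.247 to 0.367 FPKM in Sp8 null, every null library being above (log2 fold change with no filter 0.09, limma adjusted p = 0.503).

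The called genes of the hypoxia arm were led by P4ha1 and P4ha2, alpha subunits of the enzyme that hydroxylates proline in collagen. P4ha1 (ENSMUSG00000019916; chromosome 10, 59323296 to 59373304) was at 21.01, 20.3 and 14.9 FPKM in wild type and 10.2, 9.19 and 9.95 FPKM in Sp8 null. Its mean fell by 47.8% (log2 fold change -0.86, SE 0.13, limma adjusted p = 0.0107). P4ha2 (ENSMUSG00000018906; chromosome 11, 54100095 to 54131665) was at 5.72, 6.99 and 5.77 FPKM against 3.47, 2.94 and 2.98 FPKM. Its mean fell by 49.1% (log2 fold change -0.79, SE 0.11, limma adjusted p = 0.00713). Both genes had clear gaps between the groups; P4ha2 passed in 15 of 15 alternatives that tested it and P4ha1 in 14 of 16, the exceptions being the fit without wild-type embryo 2 (limma adjusted p = 0.0558) and the fit with no filter (0.0565). Car12 (ENSMUSG00000032373; chromosome 9, 66713686 to 66766845), a membrane carbonic anhydrase with its active site outside the cell, was at 6.83, 5.35 and 4.53 FPKM against 3.51, 2.81 and 3.42 FPKM. Its mean fell by 41.8% (log2 fold change -0.62, SE 0.14, limma adjusted p = 0.0472), and it passed in 6 of 15 alternatives, with adjusted p-values up to 0.146. Car9, its relative and a classical marker of hypoxia, was at most 0.144 FPKM in wild type and 0.130 FPKM in Sp8 null, where embryo 1 was listed at 0.

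The other hypoxia response genes did not pass the threshold. Vegfa, the chief vascular growth factor, was at 10.3, 10.9 and 9.39 FPKM in wild type and 4.70, 8.73 and 7.47 FPKM in Sp8 null, with no overlap and with null embryo 1 the lowest (log2 fold change -0.53, limma adjusted p = 0.143). Ndrg1, a gene induced in hypoxia and differentiation, was at 2.11, 3.32 and 2.70 FPKM against 2.06, 1.22 and 1.34 FPKM (log2 fold change -0.55, limma adjusted p = 0.106). Ero1l, which passes electrons from nascent disulfides in the endoplasmic reticulum, was at 17.4, 19.3 and 15.5 FPKM against 14.2, 11.6 and 13.3 FPKM (log2 fold change -0.39, limma adjusted p = 0.0765). Higd1a, a small mitochondrial protein, was at 21.9, 24.5 and 18.8 FPKM against 15.7, 12.9 and 17.8 FPKM (log2 fold change -0.47, limma adjusted p = 0.0865). All of these kept their null libraries below the wild-type ones. Bnip3, a mitophagy receptor, varied widely within wild type (12.6, 16.9 and 7.17 FPKM) and spanned the null values of 9.40, 8.21 and 7.38 FPKM (log2 fold change -0.44, limma adjusted p = 0.359). Its exons overlap those of Gm45507 on the other strand, which reached 25.9 FPKM. Ankrd37 was at 2.497 to 4.22 FPKM and 1.87 to 3.54 FPKM in wild type and Sp8 null (log2 fold change -0.20, limma adjusted p = 0.621), and its exons overlap those of the more abundant Ufsp2. Ddit4, an inhibitor of mTORC1 induced by hypoxia and other stresses, was the tested member with the highest log2 fold change: it was at 14.3, 19.1 and 14.8 FPKM in wild type and 21.9, 17.1 and 23.1 FPKM in Sp8 null (log2 fold change 0.34, 95% CI 0.01 to 0.68, limma adjusted p = 0.198), with overlap between wild-type embryo 2 and null embryo 2.

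Promoters were searched for the short core that HIFs bind, ACGTG or GCGTG, on either strand. Those of the 4 called members with ACGTG are shown. Binding of HIFs was not tested. RefSeq windows (GRCm38.p6) were found for 34 members, with 50 windows in all; none was found for Epas1 and Ndrg1. In the 250 bases before the start, 40 of the 50 member windows (80%) held either core, against 38.6% of all 32851 promoter windows and 57.1% of the 10869 windows of genes tested here. ACGTG alone was in 50% of member windows, against 16.6% of all windows and 21.9% of those of tested genes. The median share of G and C was 61% in member windows, 52.4% in all windows and 60.4% in those of tested genes. Many members are known HIF targets, so this excess is not independent of how they were chosen, and a match is a description of letters. Windows were matched by symbol, and the RefSeq start of P4ha2 lies inside its GENCODE gene. ACGTG also lies inside CACGTG, the E-box bound by MYC and USF factors, which was in 6 of the 50 member windows (12%) and in none of the 8 windows of called members, against 6.02% of all windows and 8.49% of those of tested genes. Of the 6 called members, 4 had ACGTG in a window: Hk2 (chr6:82774455-82774704, minus strand), P4ha1 (chr10:59323046-59323295, plus strand), P4ha2 (chr11:54100674-54100923, plus strand) and Pgk1 (chrX:106186850-106187099, plus strand). Eno1 had only GCGTG, and Car12 had neither in its window. By window, ACGTG was in 4 of the 8 windows of called members (50%), the same share as in all member windows. The motif thus did not set the called members apart. The 4 sequences are given 5′ to 3′ on the gene's strand and end at the base before the start; capitals mark the cores or their reverse complements.
Hk2: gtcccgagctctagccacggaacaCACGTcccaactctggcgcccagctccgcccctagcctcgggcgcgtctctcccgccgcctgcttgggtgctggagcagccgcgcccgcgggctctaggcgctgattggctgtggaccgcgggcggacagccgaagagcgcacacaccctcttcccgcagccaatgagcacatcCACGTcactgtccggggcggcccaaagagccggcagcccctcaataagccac
P4ha1: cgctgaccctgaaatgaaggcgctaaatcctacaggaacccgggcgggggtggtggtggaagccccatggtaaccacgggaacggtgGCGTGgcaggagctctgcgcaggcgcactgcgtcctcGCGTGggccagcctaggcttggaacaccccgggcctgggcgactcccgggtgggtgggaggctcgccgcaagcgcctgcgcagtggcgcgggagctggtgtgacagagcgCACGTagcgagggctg
P4ha2: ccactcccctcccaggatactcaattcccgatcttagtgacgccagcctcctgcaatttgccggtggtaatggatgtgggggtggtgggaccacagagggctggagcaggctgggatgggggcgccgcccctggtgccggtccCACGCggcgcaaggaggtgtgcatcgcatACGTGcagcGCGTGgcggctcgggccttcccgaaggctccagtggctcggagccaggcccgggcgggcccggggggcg
Pgk1: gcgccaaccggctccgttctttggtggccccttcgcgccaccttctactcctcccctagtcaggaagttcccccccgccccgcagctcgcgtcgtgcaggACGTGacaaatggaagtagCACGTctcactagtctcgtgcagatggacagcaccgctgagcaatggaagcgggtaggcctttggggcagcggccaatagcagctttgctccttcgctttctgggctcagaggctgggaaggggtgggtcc
The capitals begin 226 and 52 bases before the start in Hk2, 163, 126 and 16 bases before it in P4ha1, 107, 78 and 69 bases before it in P4ha2, and 150 and 131 bases before it in Pgk1.

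Shares of isoenzymes within a library do not depend on scaling between libraries. Ldha made up 88.3%, 90.9% and 88.5% of the summed FPKM of Ldha and Ldhb in wild type and 86.3%, 80.9% and 85.0% in Sp8 null, a difference of -5.16 percentage points. Hk2 made up 98.4%, 98.4% and 97.8% of the hexokinase pair in wild type and 96.1%, 94.3% and 96.7% in Sp8 null. Egln1 made up 93.4%, 93.4% and 94.9% of Egln1 and Egln3 in wild type and 95.9%, 97.6% and 97.9% in Sp8 null. In these 3 families and in Hif1a with Epas1 the groups did not overlap. The exact permutation test (two-sided) gave p = 0.1 for each, the smallest that 3 libraries against 3 allow, and 0.225 after Benjamini-Hochberg adjustment over 9 families, so no share passed. The share of P4ha1 in P4ha1 and P4ha2 was 75.04% ± 3.29 in wild type and 75.8% ± 1.16 in Sp8 null (SD, n = 3; exact permutation p = 0.8). Pfkl, Aldoa, Eno1 and Pdk1 shares overlapped between the genotypes.

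**Figure D3:**
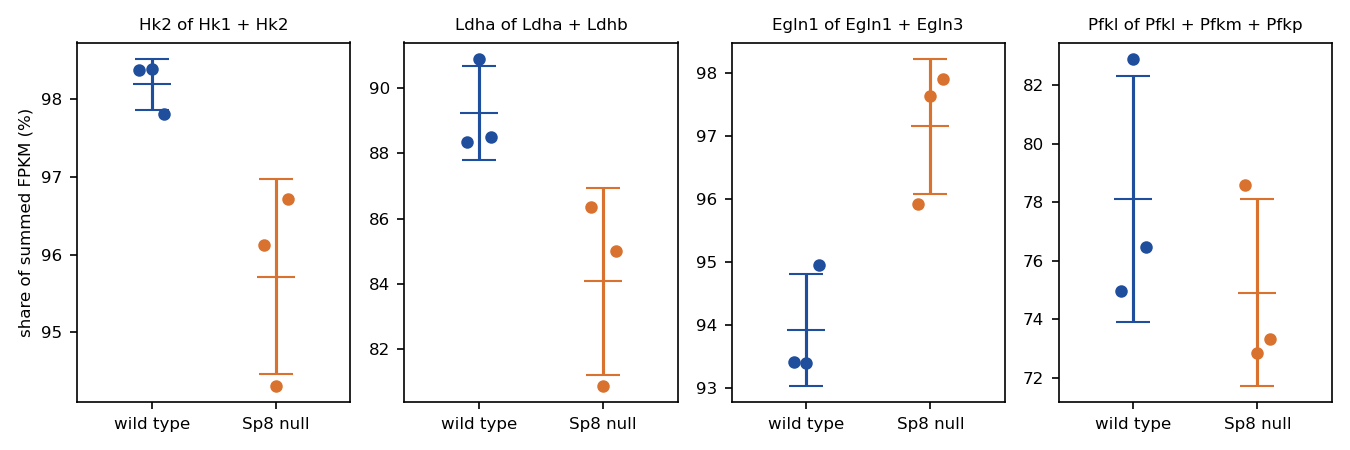
Share of an isoenzyme in the summed FPKM of its family, in percent, for 4 of the 9 families; points are libraries, bars the mean ± SD (n = 3), and each axis has its own range that does not start at 0. Hk2 and Ldha shares are lower and the Egln1 share higher in Sp8 null without overlap, and Pfkl shares overlap.

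The members also varied together within wild type. Among the 32 tested members, wild-type embryo 2 had the highest wild-type value in 24 and wild-type embryo 3 the lowest in 25. Over all tested genes these embryos were highest and lowest in 37% and 52.1%. Within Sp8 null, embryo 1 was highest in 20 members and embryo 2 lowest in 19, against 21.8% and 35.4% of all tested genes. The summed FPKM of the 21 glycolysis genes was 3486, 3875 and 3078 in wild type and 3008, 2644 and 2764 in Sp8 null, so wild-type embryo 3 stood close to null embryo 1. That of the 15 hypoxia response genes was 179, 194 and 152 in wild type and 139, 122 and 139 in Sp8 null. The count of 6 called members changed when any 1 library was left out. Each such fit also called a smaller share of all tested genes than the 6.83% reported. Without wild-type embryo 3 the called members were 7, with Ldha, Pkm and Tpi1 added and Eno1 and Pgk1 lost, while 3.3% of all genes were called. Without wild-type embryo 2 the called members were 2, Hk2 and P4ha2, against 1.79% of all genes. Without wild-type embryo 1 or any 1 of the 3 Sp8 null embryos they were 3, Hk2, P4ha1 and P4ha2. The share of all genes in those fits was 3.07% to 5.58%. The falls to 2 and 3 members thus came with fewer calls among all tested genes.

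**Figure D4:**
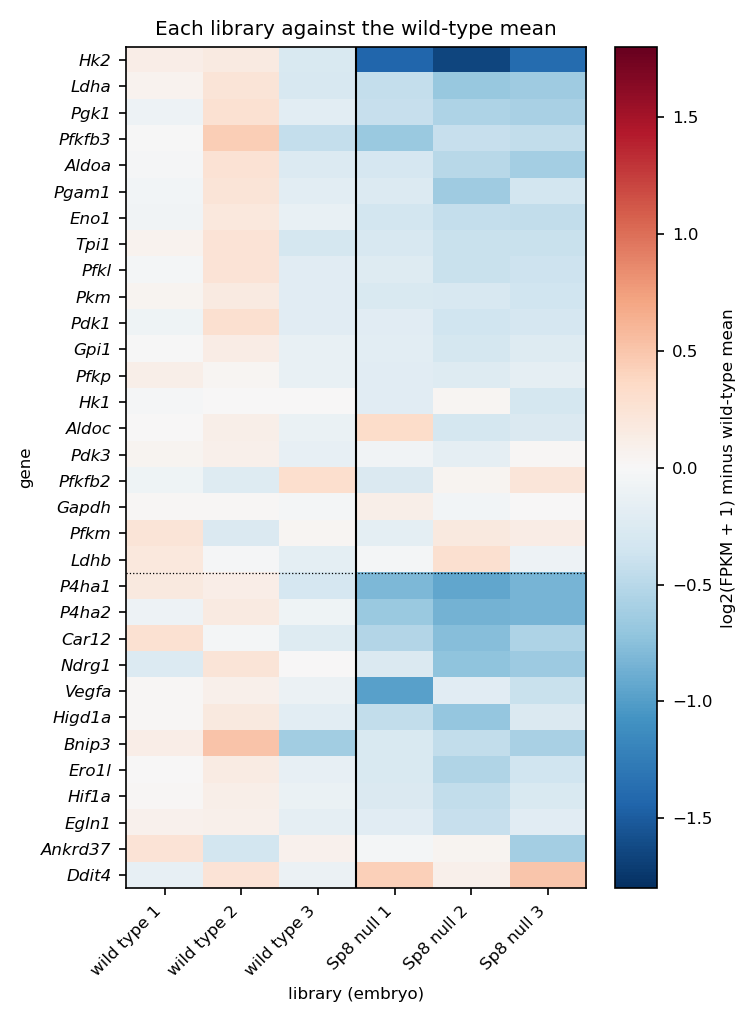
Each library's log2(FPKM + 1) minus the wild-type mean, by gene (rows, glycolysis above the dotted line) and library (columns, wild type left of the line); red is above and blue below the wild-type mean. Among the wild-type columns most rows are reddest in embryo 2 and bluest in embryo 3, and Hk2, P4ha1 and P4ha2 are deep blue in all 3 Sp8 null columns.

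The authors' deposited table gave another summary of the same libraries, with group means on a normalized scale, a signed fold change and a p-value whose test its header does not name. With its p-values adjusted by Benjamini-Hochberg over the 12133 genes, 16 of 32 members were lower at under 0.05 in the authors' deposited table, against 13.9% of all tested genes. The fold change in the authors' deposited table was -2.29 for Hk2 and -1.75 for P4ha1 and for P4ha2. Egln3 had a fold change of -2.06 with p = 1e-06 in the authors' deposited table, from means of 137 in wild type and 52.2 in Sp8 null. Of the 16, 10 did not pass here: Gpi1, Pfkl, Pfkfb3, Pkm, Ldha, Hif1a, Egln1, Vegfa, Ndrg1 and Ero1l. Their fold changes ran from -1.16 (Gpi1) to -1.44 (Pfkfb3) in the authors' deposited table, and their unadjusted p-values from 4e-06 (Hif1a) to 0.00664 (Ndrg1). Among tested members Ddit4 alone was higher past that adjusted threshold in the authors' deposited table (fold change 1.29, p = 0.0013). Gapdh was at -1.0 with p = 0.983 in the authors' deposited table. These values come from the same 6 libraries and are no independent evidence.

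Other genes of these pathways were read from further lists. Their counts stand against 5.15% of all tested genes called lower, 1.68% called higher and 7432 of 12133 with a lower mean of log2(FPKM + 1). Of 22 other glycolytic and linked enzymes 10 were tested and none was called (limma), with 3 at an unadjusted p under 0.05 and a median log2 fold change of -0.13; Bpgm, which makes 2,3-bisphosphoglycerate, had the smallest p (log2 fold change -0.31, limma adjusted p = 0.139). In the pentose phosphate pathway 1 of 10 was called, Tkt, a transketolase. It was at 15.7 ± 0.476 FPKM in wild type and 11.7 ± 0.281 FPKM in Sp8 null (SD, n = 3), a log2 fold change of -0.40 (limma adjusted p = 0.0167). Of 18 tested genes of the citric acid cycle 3 were called, all lower: Suclg2 (-0.55), citrate synthase Cs (-0.39) and Idh3a (-0.51), each value a log2 fold change, and 17 of the 18 had lower means. Of 11 tested genes for pyruvate entry into mitochondria, Pdk2 was the one call and was higher. This relative of Pdk1 and Pdk3 stood at 2.76 ± 0.11 FPKM in wild type and 3.96 ± 0.202 FPKM in Sp8 null, a log2 fold change of 0.40 (limma adjusted p = 0.0423). Of 14 other HIF pathway components Tceb1, an elongin that joins VHL in its ubiquitin ligase, was called (log2 fold change -0.28, limma adjusted p = 0.0358). Of 26 other tested hypoxia response genes 3 were called, all lower, with a median over the list of -0.08. They were P4hb, the beta subunit that partners P4ha1 and P4ha2 (147 ± 12.7 FPKM in wild type, 106 ± 5.41 FPKM in Sp8 null, SD, n = 3; log2 fold change of -0.47, limma adjusted p = 0.018), Igfbp3 (-0.85, 0.0217) and the mitochondrial Fam162a (-0.65, 0.0428), with log2 fold change and limma adjusted p. In 7 of these 26 every null library was below every wild-type library, against 21.1% of all tested genes, and in 4 every null library was above, against 8.63%. The 4, named after their values were seen, were Ccng2, Kdm4b, Angptl4 and Narf, with log2 fold changes of 0.26 to 0.41 that did not pass. Of 14 tested genes of the integrated stress response, which also induces Ddit4, 2 were called, both lower. They were Vldlr, a lipoprotein receptor (-1.33), and Slc7a11, the cystine carrier (-0.83), as log2 fold changes. Vldlr was at 3.40 to 3.74 FPKM in wild type and 0.605 to 0.987 FPKM in Sp8 null. It thus met the filter through wild type alone and, with such null values, could be called only as lower. Of the 14, 12 had lower means.

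Markers of other cells were read beside these results. All 15 surface ectoderm markers passed the filter, with Cldn6 the highest, and their summed FPKM was 1154 to 1276 in wild type and 957 to 1237 in Sp8 null. Called members of that list went both ways (Tfap2a 0.52, Epcam -0.53, as log2 fold changes). The 14 limb mesenchyme markers, of which Meis2 was highest, summed to 138 to 182 FPKM in wild type and 139 to 212 FPKM in Sp8 null, with none called by limma and 1 at an unadjusted p under 0.05, Pdgfra, at 19.7 to 23.8 FPKM in wild type and at 6.37, 19.6 and 6.01 FPKM in Sp8 null (log2 fold change -1.15, limma adjusted p = 0.12). Null embryo 2, which stood apart in Prrx1 and Twist1, also had 14.0 FPKM of Tbx5 against 1.10 to 6.28 FPKM in the other libraries, the lowest surface ectoderm sum, and the lowest null value in 19 of the 32 tested members. Erythroid markers, led by Hbb-y, summed to 429, 36.7 and 11.8 FPKM in wild-type embryos 1, 2 and 3 and to 165, 63.1 and 104 FPKM in Sp8 null embryos 1, 2 and 3. Their order was that of the glycolysis sums among the null embryos, while in wild type the erythroid sum was highest in embryo 1 and the glycolysis sum in embryo 2. Endothelial markers summed to 2.27 to 3.19 FPKM in wild type and 2.64 to 4.65 FPKM in Sp8 null. Of these 12 genes only Egfl7 reached the filter. The defining Cdh5 was listed at 0 in all wild-type libraries and at 0.0242 to 0.359 FPKM in Sp8 null. Pecam1 was also higher in every null library, at 0.154 to 0.358 against 0.0466 to 0.123 FPKM. The other endothelial markers overlapped between the genotypes. Macrophage markers summed to 0.0202 to 1.13 FPKM in wild type and 1.22 to 2.19 FPKM in Sp8 null, and none of the 10 reached 1 FPKM in any library. Of the early genes induced by dissociation, Btg2 was higher (0.80) and Jun lower (-0.53), and the list summed to 49.6 to 56.5 FPKM in wild type and 53.8 to 55.1 FPKM in Sp8 null. The part of cell composition in the member results was not tested.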

How the data were processed

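RNA-seq of forelimb ectoderm was given as 1 table. The authors deposited FPKM per gene and library and, per group, a mean normalized signal, a signed fold change (a score) and a p-value. Genes carry Ensembl build 87 identifiers, per the file headers. Per the submitters' processing notes, FastQC, SAMtools, TopHat2, DESeq2, Cufflinks and GRCm38 were named, without their roles; strand and scaling are not given in the sources used here. Read depth is unknown, so no counting interval is given.

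A linear model of log2(FPKM + 1) with genotype as its only term was fitted over the 12133 genes that reached 1 FPKM in 3 or more libraries, in limma 3.58.1 (R 4.3.3) with a mean-variance trend; p-values are two-sided and Benjamini-Hochberg adjusted, with 0.05 as threshold. The script was tested on simulated data. FPKM plus 1 understates changes of low genes. Each embryo is 1 replicate. Every member is named; other lists give called genes, at most 5, or the smallest p, and marker lists their highest gene. Members and lists were chosen with earlier results of these data known. Coordinates, pseudogenes and exon overlaps are from GENCODE M21 (GRCm38), matched by identifier (49109 of 49452). Alternatives changed the pseudocount, filter, scaling, covariates, trend and libraries.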

Additional observations from a re-analysis of the deposited data

How the results depend on the processing

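Of the fold changes of the 32 tested members under the alternatives, 447 kept their direction and side of the threshold, 37 kept the direction but no longer passed, 5 passed newly and 14 changed direction; the cause was not tested. Called genes numbered 829 as reported, 342 with no filter on low values (where 27766 genes are tested), 545 with a covariate for the number that opens each sample name (4 members called), and 213 to 665 with 1 replicate left out, the lowest without wild-type embryo 2. Called members numbered 6 as reported, 3 with median-of-ratios scaling, 3 with no mean-variance trend, 2 with no filter and 2 to 7 with 1 replicate left out. The shares of all tested genes called in these fits were, in the same order, 6.83%, 7.18%, 5.67%, 1.23% and 1.79% to 5.58%. Embryo numbers did not pair the samples: deviations of same-numbered libraries correlated at -0.164, -0.145 and -0.0699. With the replicate block 328 genes and 3 members (Hk2, P4ha1 and P4ha2) were called. Reversals came from leaving out 1 replicate, in members whose reported log2 fold change lay from -0.20 (Ankrd37) to 0.06 (Ldhb). It then ran from -0.09 to 0.16 for Pfkm, -0.12 to 0.16 for Pfkfb2 and -0.29 to 0.03 for Aldoc. For Gapdh it ran from -0.03 to 0.05, for Ldhb from -0.06 to 0.16 and for Ankrd37 from -0.37 to 0.01. Depth is unknown, so for the low Car9, Eno2 and Epas1 no counting error can be given.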
